A study of Mus musculus with 4 samples.

Results

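A set of 9 genes that govern mineral deposition and phosphate handling (Phospho1, Alpl, Smpd3, Enpp1, Bglap, Dmp1, Ibsp, Slc20a1 and Slc20a2) was followed in the burn/tenotomy (BT) injury of the mouse hindlimb. They were picked by name with earlier results of these data known, and all 9 had a row in each of the 4 samples, among 32285 gene rows in the single-cell tables and 19465 in the section tables. In BT, a burn and the cutting of the Achilles tendon lead to heterotopic ossification (HO), the growth of bone in soft tissue. All 4 samples were taken 7 days after the injury. Unsorted cells of the tenotomy site came from Hif1a fl/fl mice that also carried Hoxa11CreER and ROSA-LSL-TdTomato, in 1 library pooled from replicates 1 and 2 (the pooled library) and 1 library of replicate 3. These mice had tamoxifen at 75 mg/kg daily for 5 days and, by the labels, a washout of 9 days before surgery. In this design Cre deletes Hif1a only in cells of the Hoxa11 lineage, a lineage of the lower limb, and the other cells keep the floxed allele. Both libraries came from such mice, and no Cre-negative library was analysed here. The other samples were 2 Visium sections, A1 and B1, of formalin-fixed injured hindlimbs of wild-type male C57BL/6 mice aged 10 weeks, in which each spot takes up RNA from a small region that can hold several cell types. The labels do not say if these sections are of 1 mouse or of separate mice, so p-values over the sections measure the spread between these 2 sections, which may be technical. Levels are in CPM, the share that a gene took of all unique molecular identifiers (UMIs, counts of RNA molecules) summed over the cells or spots of a class, as counts per 1000000.

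Mineral forms where phosphate and calcium meet a permissive matrix, and it is held back by pyrophosphate. ENPP1 makes extracellular pyrophosphate from nucleotides, and the tissue-nonspecific alkaline phosphatase encoded by Alpl breaks it down and frees phosphate. PHOSPHO1 frees phosphate from phosphocholine inside matrix vesicles, which bud from osteoblasts and hypertrophic chondrocytes. Osteocalcin (Bglap), dentin matrix protein 1 (Dmp1) and bone sialoprotein (Ibsp) are matrix proteins of osteoblasts and osteocytes, and the sodium-phosphate cotransporters PiT-1 (Slc20a1) and PiT-2 (Slc20a2) carry phosphate into cells.

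The sections held 2259744 UMIs in 3555 spots of A1 and 2308754 UMIs in 3195 spots of B1, and the median spot had 454 UMIs in A1 and 516 UMIs in B1. Spots were classed by 13 osteoblast-lineage genes as bone, by cartilage collagens and proteoglycans as cartilage, or by genes such as Postn, Tnc and Cthrc1 as wound, and no member was among these genes. A spot passed a gate when its marker UMIs exceeded the rate of its section at a Poisson tail under 0.001. The bone gate found 11 spots in A1 and 10 in B1, fewer than the minimum of 20 that had been set. They were compared all the same, and a second gate was added after the data were seen, in which the marker UMIs of a spot and its 6 neighbours were counted together. This 7-spot gate held 52 bone, 273 cartilage and 175 wound spots in A1, and 89, 223 and 223 in B1. With the single-spot gate there were 132 cartilage and 46 wound spots in A1, and 93 cartilage and 87 wound spots in B1.

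The label bone rested on 10 of 13 bone markers detected in each section, with Dlx3, Dkk1 and Col24a1 at 0 in A1 and Ifitm5, Omd and Col24a1 at 0 in B1. Bone spots were not pure. The 12 cartilage markers summed to 10992 CPM in A1 bone spots and 4404 CPM in B1 bone spots, against 2465 and 1883 CPM in wound spots, and 5 of the 13 A1 spots that passed the bone gate also passed the cartilage gate. The 7 osteoclast markers summed to 1221 CPM in A1 and 3303 CPM in B1 bone spots, against 2125 and 1491 CPM in wound spots, with Atp6v0d2, Ocstamp and Calcr at 0 in the bone spots of both sections. The 5 probed marrow markers gave 0 UMIs in A1 and 1 UMI in B1 bone spots. All these values are for the single-spot gate. With the 7-spot gate the osteoclast markers summed to 4464 and 2805 CPM in bone spots of A1 and B1, against 1927 and 1677 CPM in wound spots. The 13 bone markers summed to 2075 and 2068 CPM in those bone spots, against 5234 and 5204 CPM with the single-spot gate. The part of cartilage cells or osteoclasts in the levels of the members was not tested.

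Bone spots carried far more Phospho1, Alpl, Bglap and Dmp1 than wound spots, whereas the pyrophosphate enzyme Enpp1 and the transporters did not follow them. In edgeR's quasi-likelihood test over all genes, with section as a block and Benjamini-Hochberg adjustment, 6 members had enough counts to be tested between bone and wound spots and 5 of them were higher in bone (Phospho1, Alpl, Bglap, Dmp1 and Ibsp), where 1.18% of all 3043 genes tested were called higher. Ibsp had 0 UMIs in the wound spots of both sections and passed the filter through its 5 bone UMIs, so it had to differ. The other 4 also had few wound UMIs, from 0 to 15 in a section. They may have passed the filter through bone, cartilage or other classes where they are high. The counts of members called against wound spots, for bone and for cartilage, are therefore descriptive and no separate support. With the 7-spot gate 7 members could be tested and the same 5 were higher in bone, where 1.29% of 6642 genes were. Between cartilage and wound spots 5 members were tested and 4 were higher in cartilage (Phospho1, Dmp1, Alpl and Bglap), where 1.16% of genes were called higher with the single-spot gate and 0.873% with the 7-spot gate. Between bone and cartilage spots 6 were tested and 2 were higher in bone (Phospho1 and Dmp1), where 0.230% of genes were called higher. The 7-spot gate added Bglap and Alpl to these, where 0.361% of genes were called. Between bone and wound spots 36 genes were called higher and 43 lower by edgeR, against 48 and 9 by DESeq2, and the median log2 fold change over all genes was -0.51 in edgeR, -0.14 in DESeq2 and -0.08 with the 7-spot gate, all small beside the values of the 5 members. A filter on low counts decided which members were tested, and it kept Smpd3, Enpp1 and Slc20a2 out of this comparison. Fewer cells of a type and less RNA per cell cannot be told apart in such spots.

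**Figure D1:**
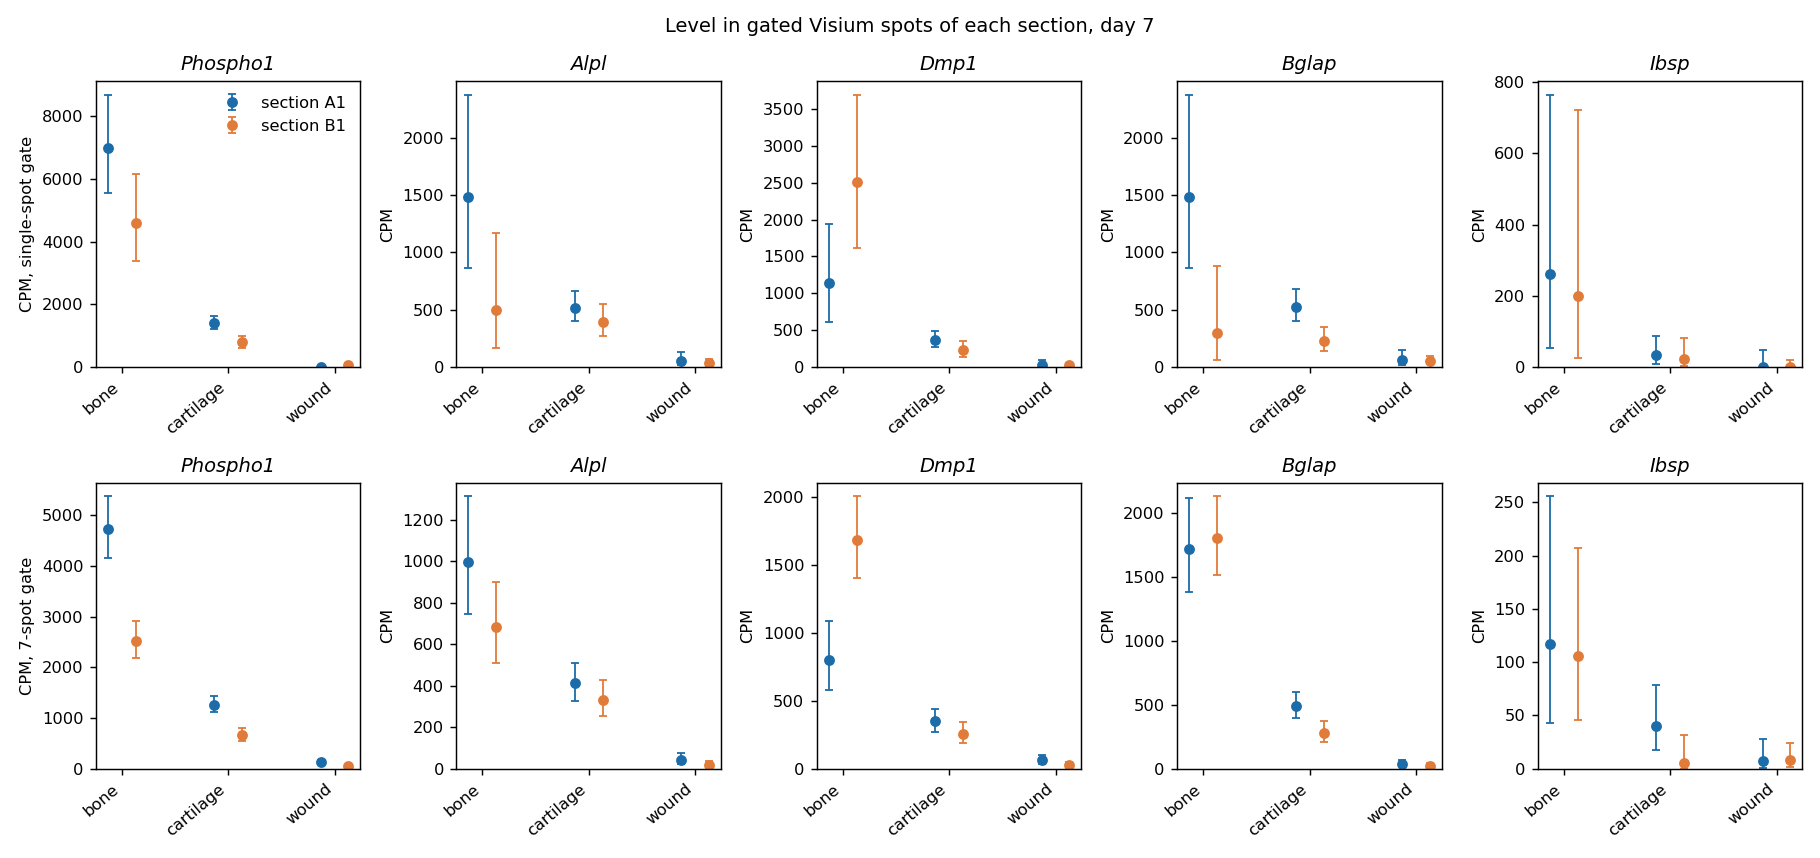
CPM of Phospho1, Alpl, Dmp1, Bglap and Ibsp in each spot class of sections A1 and B1, with bars for exact Poisson 95% intervals. With the single-spot gate Phospho1 stands at 6979 and 4604 CPM in bone spots, above cartilage and wound spots in both sections.

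Phospho1, the phosphatase of matrix vesicles, held the order bone, cartilage, wound in both sections. In section A1 it had 6979 CPM in bone spots (80 UMIs), 1403 CPM in cartilage spots and 0 UMIs in wound spots. In section B1 it had 4604 CPM in bone spots (46 UMIs), 796 CPM in cartilage spots and 79.3 CPM in wound spots. The order bone, cartilage, wound held in both sections with Poisson intervals that did not overlap. Bone exceeded wound by 6.34 ± 0.43 (log2 fold change ± SE, adjusted p = 2.5e-26), and cartilage exceeded wound by 4.34 ± 0.46 (adjusted p = 1.5e-10), a value of 6.22 without section B1 and 2.89 without section A1. With osteoclast genes added to the bone gate, bone exceeded wound by 4.11 (adjusted p = 3.6e-08). As counted in B1, bone was 58.0-fold higher than wound (exact 95% interval 31.8 to 112). In A1, with 0 wound UMIs, the exact 95% lower limit of the ratio was 147. Against an assumed floor of 3 wound counts the A1 ratio was 185, which is no bound. With the 7-spot gate Phospho1 had 4738 CPM in bone, 1261 CPM in cartilage and 123 CPM in wound spots of A1, and 2529, 669 and 51.7 CPM in those of B1. There bone was 38.6-fold higher than wound in A1 (26.6 to 57.7) and 48.9-fold higher in B1 (30.5 to 83.0). Bone exceeded cartilage by 2.02 ± 0.31 (edgeR, adjusted p = 1.8e-06), a difference that DESeq2 placed at 2.34 with an adjusted p of 0.068 and that was 1.43 without section B1 and 1.55 without section A1 (here and for the other members, log2 ratios of 1 section with a prior count of 2 and no test). With that osteoclast gate, bone no longer exceeded cartilage (log2 fold change -0.30, adjusted p = 0.91 in edgeR). The signal was spread over spots: 9 of 11 A1 and 7 of 10 B1 bone spots had a Phospho1 UMI, and the spot with the most held 21 of the 80 UMIs in A1 and 13 of the 46 in B1. Shares expected after thinning to 500 UMIs a spot were taken only over spots with at least 500 UMIs, so they do not cover all these spots. They were 94.8% and 57.1% in bone spots, 45.2% and 26.8% in cartilage spots and 0% and 2.40% in wound spots, sections A1 and B1 in that order. Outside these classes Phospho1 was still counted, at 422 and 588 CPM in myeloid-gated spots, 141 and 518 CPM in tendon-gated spots and 478 and 361 CPM in spots with no gate.

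Alpl, the phosphatase that removes pyrophosphate, was also highest in bone spots. It stood at 1483 CPM (17 UMIs) in bone, 519 CPM in cartilage and 50.3 CPM in wound spots of A1. In B1 it stood at 500.4 CPM (5 UMIs) in bone, 392 CPM in cartilage and 31.7 CPM in wound spots. Bone exceeded wound by 4.26 ± 0.63 (edgeR, adjusted p = 1.9e-07) and cartilage exceeded wound by 3.54 ± 0.49 (adjusted p = 4.5e-07), while the bone against wound value was 2.26 without section A1 and 2.43 with osteoclast genes in the bone gate (edgeR, adjusted p = 0.017). The difference between bone and cartilage was not called with the single-spot gate (0.74 ± 0.47, edgeR, adjusted p = 0.57) and took the other sign without section A1 (-0.56). With the larger 7-spot gate, Alpl had 998 CPM in bone, 412 CPM in cartilage and 42.2 CPM in wound spots of A1, and 685, 332 and 16.3 CPM in those of B1. There bone exceeded cartilage by 1.13 ± 0.28 (edgeR, adjusted p = 0.016).

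Smpd3 encodes a neutral sphingomyelinase whose loss in mice leaves bone undermineralised. It gave 0 UMIs in the bone spots of both sections with the single-spot gate, which allows up to 261.7 CPM in A1 and 300.2 CPM in B1, and 4 and 1 UMIs in cartilage spots. In the 7-spot bone spots it had 3 UMIs in A1 and 2 in B1, against 0 UMIs in the wound spots of both sections. It passed the filter in no comparison, and no difference was detectable at this depth.

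Dmp1, a matrix protein of osteocytes, was also highest in bone spots of both sections. It had 1134 CPM (13 UMIs) in bone, 366 CPM in cartilage and 25.1 CPM in wound spots of A1. In B1 it had 2502 CPM (25 UMIs) in bone, 224 CPM in cartilage and 21.2 CPM in wound spots. Both sections ran in the same order, though a single spot held 15 of the 25 bone UMIs in B1. Bone exceeded wound by 5.88 ± 0.60 (edgeR, adjusted p = 2.0e-14), a value of 3.83 without section B1. Cartilage exceeded wound by 3.59 ± 0.59 (edgeR, adjusted p = 2.3e-05). Bone exceeded cartilage by 2.20 ± 0.45 (edgeR, adjusted p = 0.00085), and this value was 0.73 without section B1, 1.69 with no filter on low counts (adjusted p = 0.10) and 0.29 with osteoclast genes in the bone gate (adjusted p = 0.93).

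Bglap, osteocalcin, was higher in bone than in wound spots too, but its 2 sections differed. In A1 it had 1483 CPM (17 UMIs) in bone, 527 CPM in cartilage and 62.9 CPM in wound spots. In B1 it had 300.2 CPM (3 UMIs) in bone, 224 CPM in cartilage and 52.9 CPM in wound spots. Bone exceeded wound by 3.55 ± 0.63 (edgeR, adjusted p = 3.0e-05) and cartilage exceeded wound by 2.70 ± 0.50 (adjusted p = 0.00025), but the bone value was 1.11 and the cartilage value 1.61 without section A1. With the 7-spot gate the sections came together, at 1723 and 1804 CPM in bone, 492 and 280 CPM in cartilage and 38.4 and 24.5 CPM in wound spots of A1 and B1. Bone then exceeded wound by 5.82 ± 0.33 (edgeR, adjusted p = 1.1e-39) and cartilage by 2.15 ± 0.25 (adjusted p = 5.2e-12). The near-identical neighbours Bglap2 and Bglap3 had no row in the sections, so RNA from them may be counted as Bglap, and the level is uncertain to that extent.

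Ibsp, bone sialoprotein, was sparse. It gave 3 UMIs in A1 and 2 UMIs in B1 bone spots (262 and 200.2 CPM), 4 and 2 UMIs in cartilage spots and 0 UMIs in the wound spots of both sections. Over both sections together the exact 95% lower limit of the bone to wound ratio was 11.5. The fitted difference of bone against wound was 2.91 without section B1 and 2.49 without section A1, against 6.98 in the fit of both sections. Its edgeR adjusted p was 0.021, but 0.055 both without spots in several gates and with no filter on low counts. In the 7-spot gate Ibsp had 6 and 8 UMIs in bone spots and 2 and 3 UMIs in wound spots, a ratio of 13.8 (4.71 to 49.1) over both sections and a fitted difference of 3.68 ± 0.94 (edgeR, adjusted p = 0.0097). Bone against cartilage was not called with either gate (edgeR, adjusted p = 0.46 and 0.41).

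**Figure D2:**
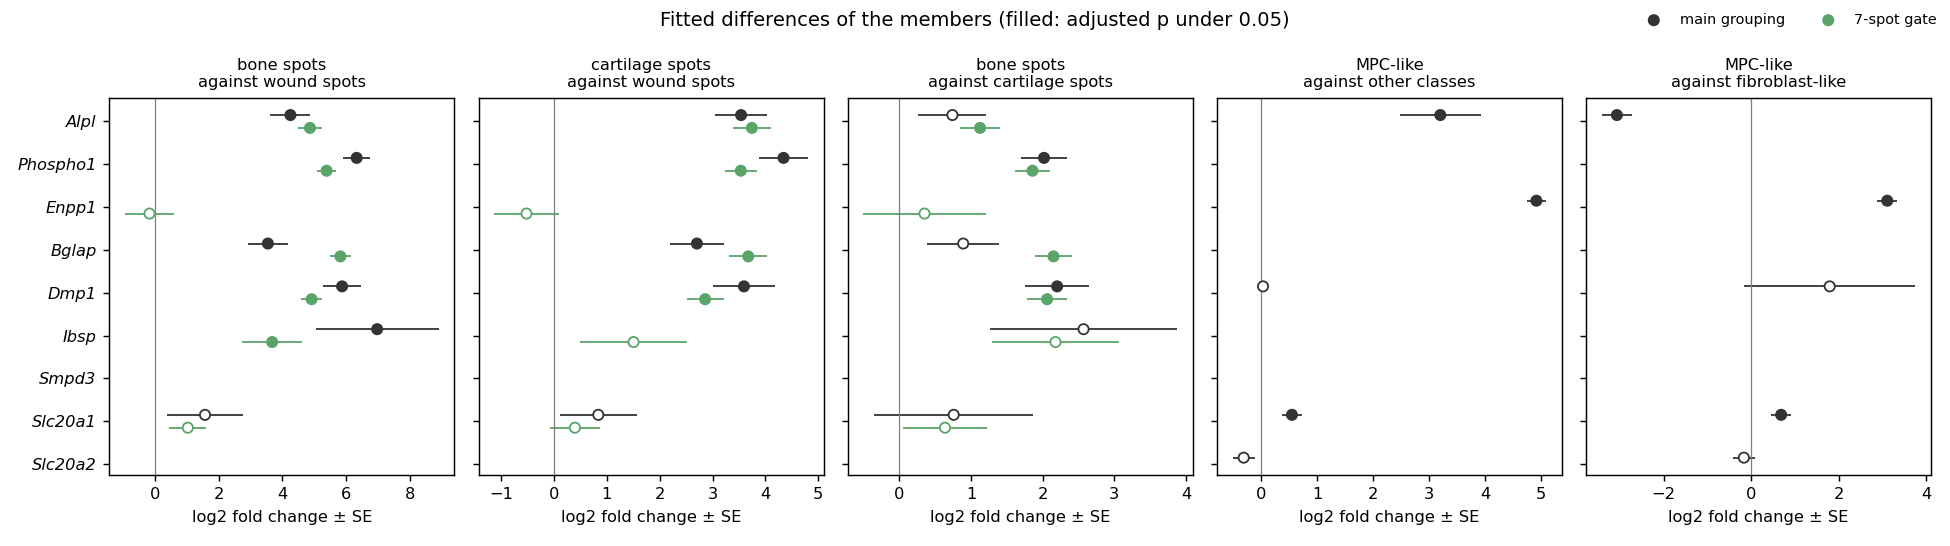
Log2 fold changes with SE of the members tested in the spot and cell comparisons. Dark points are the single-spot gate or the cell clusters, green points the 7-spot gate, and filled points passed an adjusted p of 0.05. Phospho1, Dmp1, Alpl, Bglap and Ibsp lie to the right of 0 for bone against wound, and Enpp1 lies farthest right for MPC-like cells against the other classes.

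Enpp1 was the member highest in the MPC-like cells described further on. No difference of Enpp1 between the spot classes was detected, and the cells differ from the spots in assay and genotype. The promoters of Enpp1 and of 3 of the 5 members called higher in bone spots are printed here. They are the 200 bases before the RefSeq transcription start in GRCm38.p6, read 5′ to 3′ on the strand of the gene, and capitals mark the core of the RUNX site (ACCACA, or TGTGGT on the other strand) or a TATA box (TATAAA, or TTTATA on the other strand). RUNX2, the osteoblast transcription factor, binds such a core. Phospho1 lies at chr11:95824300-95824499 on the plus strand, Bglap at chr3:88384467-88384666 on the minus strand, Dmp1 at chr5:104202417-104202616 on the plus strand (the second of 2 starts in the table) and Enpp1 at chr10:24712160-24712359 on the minus strand.
Phospho1: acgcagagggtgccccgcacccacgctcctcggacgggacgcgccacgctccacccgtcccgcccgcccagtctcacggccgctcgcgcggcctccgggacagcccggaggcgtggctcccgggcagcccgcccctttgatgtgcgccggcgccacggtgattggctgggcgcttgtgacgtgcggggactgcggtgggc
Bglap: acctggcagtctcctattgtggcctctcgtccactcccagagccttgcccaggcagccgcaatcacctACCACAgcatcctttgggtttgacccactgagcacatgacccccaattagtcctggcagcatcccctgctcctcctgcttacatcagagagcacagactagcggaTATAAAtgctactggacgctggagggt
Dmp1: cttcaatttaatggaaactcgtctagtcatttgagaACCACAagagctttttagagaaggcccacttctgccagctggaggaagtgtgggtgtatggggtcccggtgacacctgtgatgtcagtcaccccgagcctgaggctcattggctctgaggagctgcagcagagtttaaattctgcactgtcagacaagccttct
Enpp1: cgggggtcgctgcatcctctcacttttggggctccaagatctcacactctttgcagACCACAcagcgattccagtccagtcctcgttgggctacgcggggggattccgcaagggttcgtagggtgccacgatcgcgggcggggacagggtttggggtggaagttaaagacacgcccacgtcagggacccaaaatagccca
The Bglap window held a RUNX core beginning 132 bases before the start and a TATA box 27 bases before it. The Dmp1 window held a RUNX core 164 bases before the start, and the Enpp1 window one 144 bases before it, while the Phospho1 window held neither string. The window of the other Dmp1 start, not printed, held neither string. Alpl and Ibsp, also not printed, had no RUNX core in any window, and each had a TATA box in 1 window. Over 32851 promoters of this length, the RUNX core in either direction was in 11.2% and the TATA box in 9.96%. The 7 members with an entry had 10 windows, and 4 members had the RUNX core and 3 the TATA box in at least 1 of their windows. Those counts are per gene, while the shares above are per promoter, so they do not compare directly.

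The members were also counted together in single spots, for the 5 genes called higher in bone spots. These 5 were picked by their counts in the same spots, so the tally below is descriptive and no separate support. At least 2 of the 5 genes Phospho1, Alpl, Bglap, Dmp1 and Ibsp were detected in 7 of 11 A1 and 7 of 10 B1 bone spots, in 54 of 132 and 20 of 93 cartilage spots and in 0 of 46 and 1 of 87 wound spots. Bone spots had medians of 965 and 1045 UMIs and cartilage spots of 762 and 733 UMIs, and wound spots were deeper, at 1795 and 2047 UMIs. All 5 genes stood together in 2 bone spots of A1 and 1 of B1, in 0 and 1 cartilage spots and in 0 wound spots of either section. The 7-spot bone spots took 2.26% and 3.29% of all UMIs of A1 and B1. They took 21.4% and 23.7% of the Phospho1 UMIs, 16.8% and 23.9% of those of Alpl, 18.0% and 34.6% of those of Bglap, and 13.8% and 39.3% of those of Dmp1.

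Levels were lower farther from bone spots, ring by ring for Phospho1 but not for Bglap, Alpl or, in A1, Dmp1, and these ring values were not tested. In A1, Phospho1 had 6979 CPM in the bone spots and 2715, 2210, 1584, 1380 and 733 CPM in rings 1 to 5 around them. In B1 it had 4604 CPM in the bone spots and 2076, 1315, 1197, 838 and 774 CPM in these rings. Each ring was lower than the one inside it in both sections. Dmp1 had 1134 CPM in A1 bone spots, 504 CPM in ring 1, 561 CPM in ring 2 and 105 CPM in ring 5, and 2502 CPM in B1 bone spots and 394 CPM in ring 5. In B1, Bglap and Alpl were highest not in the bone spots but in ring 2, at 919 and 577 CPM. Around cartilage spots Phospho1, Bglap and Dmp1 were not lower in each ring than in the one inside it, while Alpl in B1 was, with 392 CPM in cartilage spots and 341 CPM in ring 1. In A1, Phospho1 had 1403 CPM in cartilage spots and 1360 and 1707 CPM in the first 2 rings, and in B1, Dmp1 had 224 CPM in cartilage spots and 558 CPM in ring 1.

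**Figure D3:**
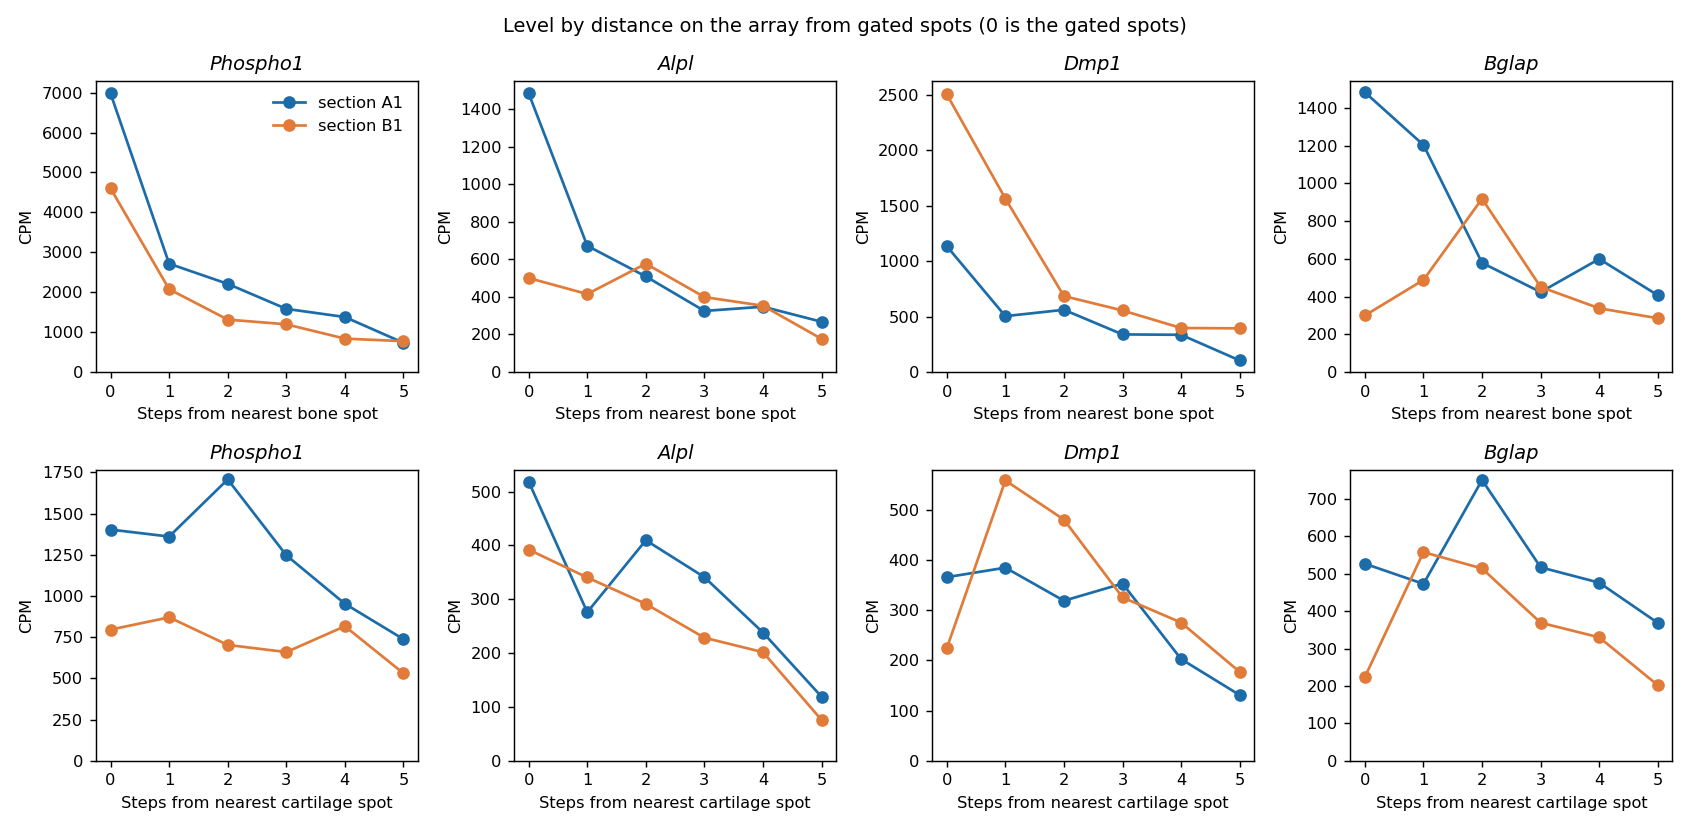
CPM of Phospho1, Alpl, Bglap and Dmp1 in rings of spots around gated bone spots and around gated cartilage spots, by section, with ring 0 as the gate itself. Phospho1 is lower in each ring from bone, down to 733 CPM in A1 and 774 CPM in B1 at ring 5, and around cartilage in A1 it is higher in ring 2 than in the gate.

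The same 4 genes were among the most spatially clustered in the tissue, by the Moran's I that was deposited with each section, a score that is high where neighbouring spots have like levels. Phospho1 reached 0.261 in A1, rank 9 of 19132 genes, and 0.208 in B1, rank 52 of 19222. Bglap ranked 53 and 60, Dmp1 91 and 66, and Alpl 133 and 167. Slc20a1 ranked 2075 and 974, and Enpp1, Ibsp, Smpd3 and Slc20a2 stood between -0.0030 and 0.0059, near the value of a random arrangement. Moran's I depends on the count of a gene, and these last genes were the sparse ones.

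Across the 18 class sums of the 2 sections, the genes whose log2 levels ran most like those of Alpl were Itga10 (r = 0.93), Col11a2, a cartilage gate gene, and Bglap (r = 0.91). The closest to Phospho1 was Rab11fip4 (r = 0.89). For Bglap they were Alpl, Smad3 and Ptgis. For Ibsp they were Insc, Gm281 and Rad17, and for Enpp1 they were Myo1d, Dhrs4 and Uap1. For Slc20a1 they were Kansl3, Ssh2 and Sap18, and for Slc20a2 Upf2, Ankrd10 and Dcaf17. The 18 sums share 2 sections and range widely in depth, so these values are descriptive.

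The single-cell libraries came from the Hoxa11CreER Hif1a fl/fl mice and the sections from wild-type mice, and the assays differ. No cluster was named as bone cells, so the libraries do not show which cells carry the members that were high in bone spots. Of 2303 and 1266 barcodes, with 31536402 and 23379476 UMIs, 1260 and 780 passed the filters in the pooled library and in replicate 3, with medians of 13422.5 and 17528.5 UMIs. The 2 libraries shared 1 barcode and none among the kept cells. Cells were clustered without the members, and clusters were named from markers. The MPC-like cluster, named for the mesenchymal progenitor cells (MPCs) that the study takes as the source of ectopic bone, led with Tnmd, Thbs4 and Fmod and had 13 of its markers among its 50 leading genes. All 7 genes that gated spots as tendon are among the MPC markers too, and those 7 do not tell MPCs from tendon cells. The cluster held 166 and 143 cells. A further 7 classes with at least 20 cells in each library entered the fits, and 22 chondrocyte-like cells (16 and 6), all dendritic-like, mast-like and skeletal muscle-like cells and 225 and 140 unnamed cells did not. A gate on each cell's own markers gave the same name to 96.4% of the 1252 cells it shared with the clusters.

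Only 5 members passed the filter on low counts in cells, Enpp1, Alpl, Dmp1, Slc20a1 and Slc20a2, and all 5 differed between the 8 classes in edgeR with library as a block, where 86.1% of 12664 genes did. DESeq2 did not call Dmp1 (adjusted p = 0.81), and the per-cell gate did not call Slc20a2 (adjusted p = 0.14 in edgeR). Between MPC-like cells and the mean of the other classes 3 were higher, where 30% of genes were. Between MPC-like and fibroblast-like cells 2 were higher and 1 was lower, where 5.75% of genes were called higher and 9.95% lower.

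**Figure D4:**
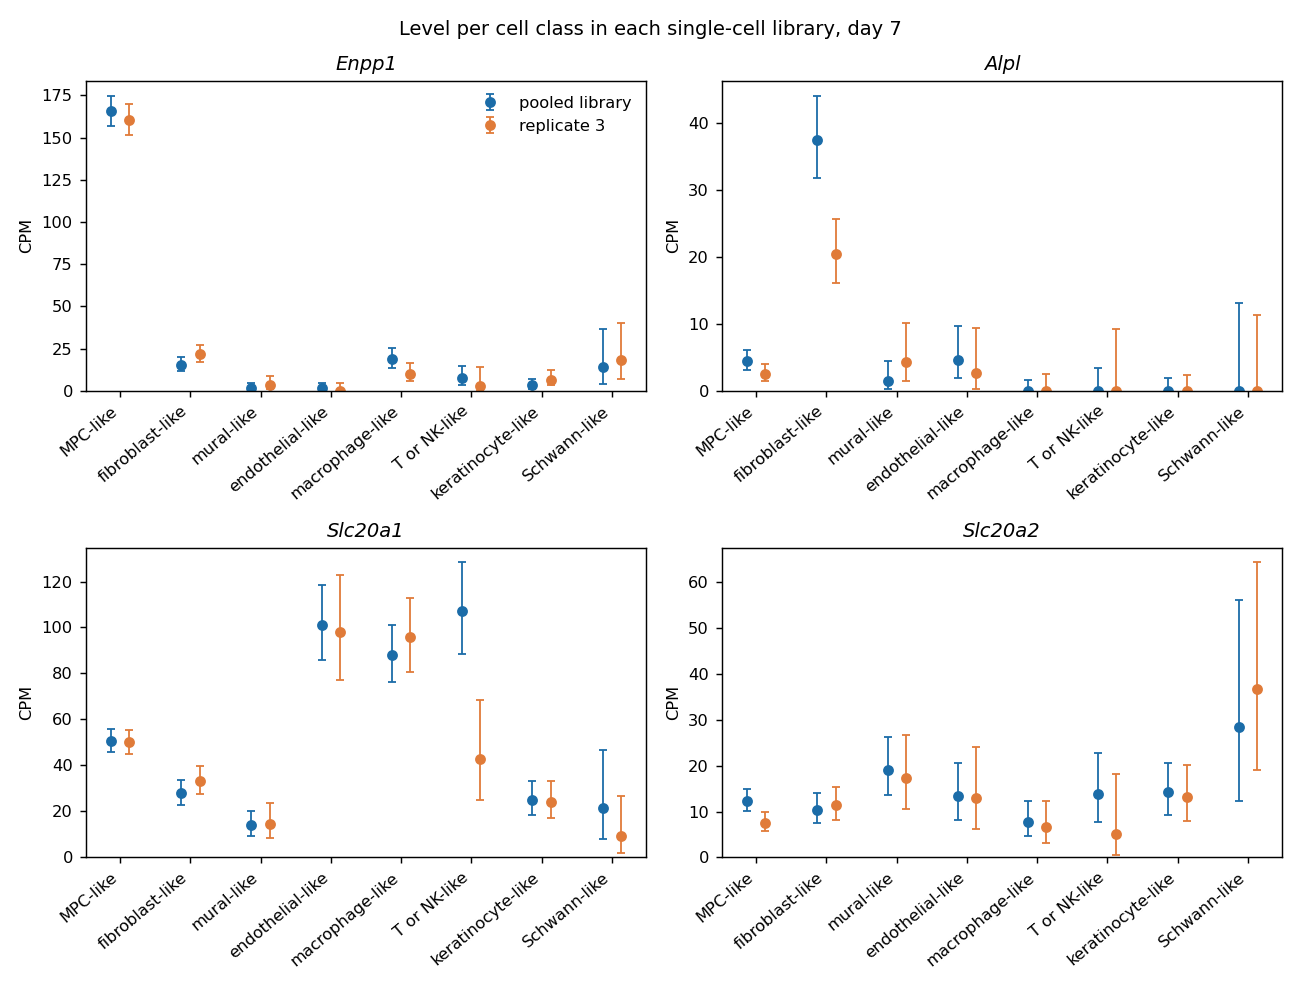
CPM of Enpp1, Alpl, Slc20a1 and Slc20a2 in the fitted cell classes of the pooled library and of replicate 3, with bars for exact Poisson 95% intervals. Enpp1 stands at 166 and 160 CPM in MPC-like cells, and Alpl at 37.5 and 20.4 CPM in fibroblast-like cells.

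Enpp1, the source of extracellular pyrophosphate, was highest in MPC-like cells among the 8 fitted classes. It had 166 CPM in the pooled library (1346 UMIs, 95% interval 157 to 175) and 160 CPM in replicate 3 (1163 UMIs, 151 to 170). Fibroblast-like cells had 15.5 and 21.5 CPM, macrophage-like cells 18.7 and 9.97 CPM and Schwann-like cells 14.3 and 18.4 CPM. T or NK-like, keratinocyte-like, mural-like and endothelial-like cells had 0 to 7.32 CPM. The counting intervals of the 2 libraries overlapped in MPC-like cells, and no other fitted class came near them. An unnamed cluster led by dividing-cell genes, which was not fitted, stood above them at 177 CPM (216 UMIs in 17 of 45 cells) and 229 CPM (213 UMIs in 12 of 33 cells). MPC-like cells exceeded the other classes by 4.91 ± 0.18 (log2 fold change ± SE, edgeR, adjusted p = 2.9e-13) and fibroblast-like cells by 3.11 ± 0.23 (adjusted p = 1.1e-07).

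At least 1 Enpp1 UMI was found in 152 of 166 MPC-like cells (91.6%, Wilson 95% interval 86.3% to 94.9%) and in 125 of 143 (87.4%, 81.0% to 91.9%). In T or NK-like cells, which are not known for the gene, the shares were 5.48% and 2.08%. The median depths were 50042.5 and 50787 UMIs in MPC-like cells and 6710 and 8511 UMIs in T or NK-like cells. Shares expected after thinning to 5000 UMIs a cell were taken only over cells with at least 5000 UMIs. They were 45.9% and 43.4% of MPC-like cells, 7.20% and 9.35% of fibroblast-like cells and 2.75% and 0.72% of T or NK-like cells. These intervals cover counting error only. The chondrocyte-like cells, too few for the test, had 113 CPM (91 UMIs in 16 cells) and 105 CPM (26 UMIs in 6 cells). In the sections no difference of Enpp1 between the tissues was detected, at low counts. It had 0 UMIs in A1 and 1 UMI in B1 bone spots, 51.0 and 22.4 CPM in cartilage spots and 25.1 and 58.2 CPM in wound spots. With the 7-spot gate bone against wound was -0.17 ± 0.77 and cartilage against wound -0.52 ± 0.61 (edgeR, adjusted p = 0.97 for both).

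Alpl, which breaks pyrophosphate down, was low in MPC-like cells and had its highest level in fibroblast-like cells. MPC-like cells had 4.43 CPM (36 UMIs in 19 cells) and 2.48 CPM (18 UMIs in 11 cells). Fibroblast-like cells had 37.5 CPM (148 UMIs in 38 of 113 cells) and 20.4 CPM (74 UMIs in 21 of 89 cells). Endothelial-like cells had 4.66 and 2.61 CPM and mural-like cells 1.51 and 4.33 CPM, and their intervals overlapped those of MPC-like cells. MPC-like cells stood below fibroblast-like cells in both libraries, with intervals that did not overlap. Alpl was lower in MPC-like than in fibroblast-like cells (log2 fold change -3.07 ± 0.34, edgeR, adjusted p = 3.9e-05), the opposite direction to Enpp1. MPC-like cells exceeded the mean of the other classes by 3.20 ± 0.72 (edgeR, adjusted p = 0.0027). That mean takes in macrophage-like, T or NK-like, keratinocyte-like and Schwann-like cells, which had 0 UMIs in both libraries, so the value depends on the prior count and is no bound. With a larger prior count it was 1.35 without replicate 3 and 0.78 without the pooled library.

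Slc20a1, PiT-1, was widely detected, and MPC-like cells stood in the middle of its order. MPC-like cells had 50.7 and 50.05 CPM. Endothelial-like cells had 101 and 97.8 CPM, macrophage-like cells 88.1 and 95.7 CPM and T or NK-like cells 107 and 42.7 CPM. Fibroblast-like cells had 27.9 and 33.4 CPM, keratinocyte-like cells 25.2 and 24.2 CPM, Schwann-like cells 21.4 and 9.20 CPM and mural-like cells 14.1 and 14.7 CPM. Endothelial-like and macrophage-like cells did not differ beyond their intervals, and T or NK-like cells differed more between the libraries than most classes did from each other. MPC-like cells exceeded the other classes by 0.55 ± 0.17 (edgeR, adjusted p = 0.016), a value of 0.83 without the pooled library, and fibroblast-like cells by 0.69 ± 0.22 (adjusted p = 0.045). The comparison with the other classes was not called by DESeq2 (adjusted p = 0.056) or with no ribosomal minimum on cells (edgeR, adjusted p = 0.085), and the comparison with fibroblast-like cells was not called by DESeq2 (adjusted p = 0.12) or without the library block (edgeR, adjusted p = 0.057). In the sections Slc20a1 was highest in myeloid-gated spots, at 211 CPM (5 UMIs) in A1 and 334 CPM (42 UMIs) in B1, against 37.7 and 37.0 CPM in wound spots. It had 3 and 0 UMIs in bone spots and was called in no comparison of spots.

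Slc20a2, PiT-2, was detected in all 8 fitted classes. As counted, it was highest in Schwann-like cells, on few UMIs and with Poisson intervals that overlapped those of mural-like cells in both libraries. MPC-like cells had 12.3 and 7.58 CPM, Schwann-like cells 28.5 CPM (8 UMIs) and 36.8 CPM (12 UMIs), and mural-like cells 19.2 and 17.3 CPM. The other fitted classes lay between 5.03 and 14.2 CPM. MPC-like cells were not separated from the other classes (-0.31 ± 0.20, edgeR, adjusted p = 0.23) or from fibroblast-like cells (-0.16 ± 0.26, adjusted p = 0.75). In the sections it had 0 UMIs in the bone spots of A1 and B1, which allows up to 261.7 and 300.2 CPM, and 50.3 and 26.4 CPM in wound spots. With the 7-spot gate it had 39.2 and 26.3 CPM in bone spots (2 UMIs each) and 34.5 and 24.5 CPM in wound spots, and no difference was detectable at this depth.

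The matrix proteins and Phospho1 were nearly absent from the kept cells. Phospho1 had 2 and 1 UMIs in all, in keratinocyte-like cells, Bglap had 2 and 3 UMIs, and Smpd3 had 14 and 9 UMIs. Ibsp had 144 UMIs in the MPC-like cells of the pooled library but 4 in those of replicate 3, and 142 of the 144 lay in 1 cell. That cell had 57677 UMIs, with 10 of Alpl, 10 of Runx2, 1 of Bglap, 1946 of Col1a1, 501 of Postn and 33 of Acan. It had 0 UMIs of Spp1, Sp7, Ifitm5, Phospho1, Dmp1 and Tnmd, and it was singled out after its values were seen. The copies of Bglap were as uneven: 25 of the 26 Bglap2 UMIs of replicate 3 lay in 1 fibroblast-like cell and 35 of the 48 Bglap3 UMIs of the pooled library in 1 keratinocyte-like cell. These near-identical copies have rows of their own in the libraries, so the low Bglap count in cells is uncertain too.

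Mural-like cells held 19 of the 33 Dmp1 UMIs of the pooled library and all 13 of replicate 3. They had 9.58 CPM (19 UMIs in 7 of 97 cells) and 11.3 CPM (13 UMIs in 7 of 52 cells). Elsewhere it was found in 1 endothelial-like cell with 5 UMIs, 1 MPC-like cell with 2 UMIs and 3 unnamed cells with 7 UMIs, all in the pooled library. Those 7 UMIs lay in the cluster led by dividing-cell genes, at 5.74 CPM, and DESeq2 did not call a difference between the classes (adjusted p = 0.81). Within the mural-like class the cluster led by Rgs5 and Abcc9 had 5.82 and 10.99 CPM, and the smaller one led by Myh11 had 10 and 2 UMIs in 20 and 6 cells.

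Other genes of these pathways came from 5 lists, and those that passed the test are named by their size. Of the 5 tested genes of pyrophosphate supply and mineral inhibition, all 5 were higher in MPC-like cells than in the other classes, where 30% of all genes were, with a list median of 3.40 and a median of 0.07 over all genes. They included Mgp, matrix Gla protein (5.19), Spp1, osteopontin (4.50), Enpp3 (3.40) and Nt5e, the ectonucleotidase that makes adenosine from AMP (2.75). Enpp3, whose value is the list median, had only 2.58 and 4.55 CPM in MPC-like cells of the pooled library and replicate 3. Against fibroblast-like cells 3 of the 5 were higher, where 5.75% of all genes were, Spp1 (2.37), Nt5e (1.14) and Ank, the pyrophosphate exporter (0.93), and none was lower. Both comparisons ran in the direction of Enpp1 for every gene called.

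Of the 4 tested phosphate regulators, 2 were higher in MPC-like cells than in the other classes, Pth1r, the parathyroid hormone receptor (4.83), and Fgfr1 (2.91), with a list median of 1.67, where 30% of all genes were called higher. Against fibroblast-like cells 3 of 4 were lower, where 9.95% of all genes were, Vdr, the vitamin D receptor (-2.95), Fam20c, a secretory kinase (-1.11), and Fgfr1 (-0.84). Of the 9 matrix vesicle and lipid genes 5 were higher and 1 lower than in the other classes, where 30% and 14% of all genes were, among them Enpp2 (1.57), Anxa5 (1.24), Anxa6 (1.03) and Smpd1 (0.71), with a list median of 0.65. Against fibroblast-like cells 3 of the 9 were higher, where 5.75% of all genes were, Enpp2 (1.12), Anxa6 (0.59) and Anxa5 (0.45), and none was lower. Of the 4 tested osteoblast and hypertrophic cartilage genes, Sparc (4.65) and Runx2 (1.73) were higher than in the other classes against the same 30%. Only Atf4 (-0.44) was lower than in fibroblast-like cells, against the same 9.95%. None of the 3 tested phosphate carriers was called in either comparison.

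In the sections Pth1r was the only gene of these lists called with the single-spot gate. It had 349 and 701 CPM in bone, 400 and 280 CPM in cartilage and 75.4 and 21.2 CPM in wound spots of A1 and B1. It was higher in bone by 3.32 ± 0.78 (edgeR, adjusted p = 0.0034) and in cartilage by 3.07 ± 0.55 (adjusted p = 0.00012) than in wound spots. The 7-spot gate called Pth1r in both comparisons again (3.35 and 2.97) and added Runx2, named here after its values were seen, at 2.05 ± 0.31 for bone (edgeR, adjusted p = 1.5e-07) and 1.10 ± 0.29 for cartilage (adjusted p = 0.024) against wound. The pyrophosphate and inhibitor list had 0 calls in the spot comparisons, of 3 tested genes with the single-spot and 5 with the 7-spot gate. Its median for bone against wound took opposite signs with the gates, -1.27 with the single-spot gate (-0.51 over all genes) and 0.37 with the 7-spot gate (-0.08 over all genes).

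Across the 26 class sums of the 2 libraries, the genes most like Enpp1 were Tcfl5 (r = 0.94), Bcat1 (r = 0.94) and C1qtnf3 (r = 0.92). Those most like Alpl were Gdf10 (r = 0.93), Dnmt3l and Cxcl5, and those most like Slc20a1 were Ly6e (r = 0.87), Zfp292 and Usp48. Slc20a2 ran most like Elp4, Polr2h and Orc6. Ibsp ran most like S100g, Reg3g and Uts2r, in sums where 1 cell held most of its counts. These values are descriptive too, since the sums share 2 libraries and small classes are shallow.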

How the data were processed

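Single-cell counts were raw UMI counts per gene and cell that the authors deposited, made with Cell Ranger 5.0.1 on mm10 per the labels. Section counts were raw UMI counts per probed gene and spot, which the authors made with Space Ranger. The authors also deposited Moran's I, a score per gene, and each spot's array position, an other value with no normalization. How they computed the score is not given in the sources used here.

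Cells were kept with 200 genes or more, mitochondrial UMIs up to 20%, ribosomal UMIs of 5% or above, and a depth below the 0.99 quantile. No doublet caller was run. They were clustered with Seurat 5.3.0 (2000 variable genes, 30 components, resolution 0.8), leaving out the members and the list genes, and clusters were named from markers. Cluster 10 met the neutrophil rule but led with monocyte genes and was left unnamed by hand, and so was every cluster short of its markers. Counts were summed per sample and class and tested with edgeR 4.0.16 (TMM, filterByExpr, quasi-likelihood, Benjamini-Hochberg over all genes tested, threshold 0.05). Classes of 1 library or section come from the same mice or tissue, so library or section was the block, by design. Separate mice within the pooled library cannot be told apart. Log2 fold changes are with their SE. The test was tested on simulated counts. Alternatives were DESeq2 1.42.0, no filter, no block, other cell or spot gates, and each sample left out. Likeness was Pearson's r of log2(CPM + 10).

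The text names all 9 members, up to 4 called genes of each list per comparison, and the 3 genes most like each member with at least 50 UMIs. Members, lists and tests were chosen with earlier results of these data known. Promoters are from RefSeq; Smpd3 and Slc20a2 had no entry. The deposited scale factors were not used. Intervals are exact Poisson or Wilson at 95%, and a count of 0 is bounded by 3 counts. Thinned shares are binomial expectations, not 1 random draw, over the cells or spots that were at least as deep as the thinned depth. The genes whose levels ran most like those of Dmp1 across spot classes are not reported here.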

Additional observations from a re-analysis of the deposited data

Results flagged for a closer look

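The values here lie in cells that the comparisons did not use, and each was above the limit that a count of 0 allows. Slc20a1, PiT-1, had 149 CPM in the pooled library (25 UMIs) and 166 CPM in replicate 3 (14 UMIs) in the neutrophil-like cluster of 38 and 20 cells that appears when the ribosomal minimum is dropped, where Alpl had 0 UMIs, which allows up to 17.9 and 35.6 CPM. Enpp1 had 113 and 105 CPM in the chondrocyte-like cells of the pooled library and replicate 3. In an unnamed cluster led by the dividing-cell genes Hist1h1b, Birc5 and Tpx2, Enpp1 had 177 CPM (216 UMIs in 17 of 45 cells) and 229 CPM (213 UMIs in 12 of 33 cells), with up to 59 and 49 UMIs in 1 cell. Alpl had 20.8 CPM (19 UMIs in 5 of 35 cells) and 12.0 CPM (9 UMIs in 4 of 24 cells) in an unnamed cluster led by Coch, Crabp1 and Wif1. No sample could be compared for standing apart, since each group had 2.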

How the results depend on the processing

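The counts of genes called over the whole table moved by more than 1.5 times in these cases. Bone against wound spots gave 79 genes, and 119 with no filter on low counts (21 higher, 98 lower), 24 with osteoclast genes in the bone gate (17 higher, 7 lower) and 170 with the 7-spot gate (86 higher, 84 lower). Cartilage against wound spots gave 48 genes, 25 by DESeq2 and 30 with no replicate block. Bone against cartilage spots gave 27 genes (7 higher, 20 lower), 13 by DESeq2 (9 higher, 4 lower), 45 with no filter (2 higher, 43 lower), 17 with no replicate block and 47 with the 7-spot gate (24 higher, 23 lower). The cause was not tested, except that the 7-spot gate and the fit with no filter tested more genes. Among 257 values of the members, 208 were labelled unchanged, 31 moved, 11 lost the call, 2 gained it and 5 reversed. Unchanged meant the same direction and side of the threshold or, with a sample left out, under 1 SD from the main value. The reversals were Dmp1 by DESeq2 (-1.82, adjusted p = 0.77) and Slc20a2 with no ribosomal minimum (0.64, adjusted p = 0.41) in MPC-like cells against the other classes, and, with osteoclast genes in the bone gate, Alpl (-1.17, adjusted p = 0.30), Phospho1 (-0.30, adjusted p = 0.91) and Slc20a1 (-0.10, adjusted p = 0.99) for bone against cartilage. Beside Slc20a1 in MPC-like against fibroblast-like cells, whose adjusted p was 0.057 with no replicate block, no call of a member changed without the block. Left out in turn, a library or section gave a value with no test. The SD for these values was that of the 2 left-out values, which widens as the samples disagree. The 208 therefore do not measure how far the samples agree. A sign change with a sample left out counted as reversed only for a called member. For example, Alpl (-0.56), Bglap (-0.48) and Slc20a1 (-1.32) for bone against cartilage without section A1 were not among the 5. The stricter Poisson tail of 1e-05 could not be fitted for any spot comparison. Depth limits the sections, where the 11 bone spots of A1 carried 3 to 80 UMIs of a called member and the 10 of B1 carried 2 to 46.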
